A study of Saccharomyces cerevisiae with 8 samples.

Results

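The iron uptake regulon of Saccharomyces cerevisiae is described here by 10 genes: FIT1, FIT2, FIT3, FET3, FTR1, ARN1, ARN2, SIT1, FRE1 and LSO1. They were taken by gene symbol from a table of 6337 genes, as targets of the iron-responsive activator Aft1, and all 10 were among the 6087 genes that passed a filter on low counts. LSO1 was chosen because its transcript had shown a large interaction between the mutations compared, at low counts. Its values are therefore given as a description with no test, and tests are given for the 9 other genes. The 9 were also chosen with earlier results of these data known. Their shared directions and medians beside those of all genes are therefore a description as well.

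Messenger RNA was sequenced from haploid MATa yeast grown in rich medium (YPD) at 30 °C. The 4 strains, with 2 libraries each, carry his3Δ1, leu2Δ0 and ura3Δ0. The wild type also carries met15Δ0. The hel2∆ strain has hel2Δ::LEU2 and so lacks Hel2, the ubiquitin ligase that senses collided ribosomes and starts ribosome-associated quality control. The ncs2∆elp6∆ strain has ncs2Δ::HIS3MX and elp6Δ::URA3, and cannot complete the thiol and carboxymethyl modifications of uridine 34 (U34) in the tRNA anticodon. These help to decode AAA, CAA and GAA among other codons. The ncs2∆elp6∆hel2∆ strain carries all of these disruptions. Each deletion brings a nutritional marker that strains without it lack, so a deletion and its marker cannot be told apart. MET17, the gene altered by met15Δ0, had 0 to 6 counts in the wild-type and hel2∆ libraries and 4321 to 6651 in the others, so comparisons across U34 loss also differ in this gene. The study calls its replicates biological, and the labels number them without saying that they were separate cultures, so p-values measure the spread between these libraries.

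The libraries held 13252947 to 23941037 counts and 5919 to 6041 genes with at least 10 counts. The deleted genes were nearly absent where they should be, with 0 to 1 counts for HEL2, 0 to 11 for NCS2 and 0 to 10 for ELP6, against at least 1246, 582 and 904 counts in the strains that keep them. All 5 MATa markers were present (414 to 18893 counts). Of the 4 MATalpha markers, the summed counts were 765 to 1313 in each library, against 19331 to 38448 for the MATa markers. hel2∆ replicate 1 was the lowest library for 9 of the 10 iron genes, FRE1 being the exception, and for 11.9% of all genes tested. Fitted changes of the iron genes that use the hel2∆ libraries are therefore also given without it or as a range over alternative fits. Interaction values and the correlations named are also given without it. In a bulk culture, fewer cells that express a gene and less RNA per cell cannot be told apart.

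When iron is scarce, Aft1 enters the nucleus and switches on genes that bring iron into the cell. Yeast takes up iron by reducing ferric iron at the cell surface (reductases such as Fre1) and oxidising and importing it again through the Fet3 oxidase and Ftr1 permease, which form one complex. It also imports iron bound to siderophores, small chelators made by other microbes: the Fit1, Fit2 and Fit3 mannoproteins hold them in the cell wall, and Arn1, Arn2 and Sit1 carry them across membranes. Aft1 binds DNA at sequences around the core CACCC, and iron-sulfur clusters made in mitochondria signal through the glutaredoxins Grx3 and Grx4 to keep it out of the nucleus. Lso1 is a small protein related to the ribosome-associated protein Lso2, and its transcript is known to rise when iron is low.

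The letters TGCACCC, a 7-base form of the Aft1 sequence, were searched on both strands in the 500 bases before each coding start in the R64 reference genome. This sequence contains CACCC, so the matches to each overlap. TGCACCC occurred for 9 of the 10 genes, and for 2.33% of the 6000 start regions of this length. The 10 genes were taken as Aft1 targets, so this contrast is a description and not a test. FRE1 had only the core, at 221 to 217 bases before its start; CACCC was found for all 10 genes and for 33.5% of all regions. FIT2 had 4 matches, FIT1, FIT3 and FTR1 had 2 each, and FET3, ARN1, ARN2, SIT1 and LSO1 had 1 each. The matches are printed here, with 10 bases on each side, because 9 of the 10 genes have one. Each is written on the strand that spells TGCACCC, which is in capitals, with the R64 coordinates of the whole window.
FIT1, chrIV:1505168-1505194, minus strand: aactatgccgTGCACCCtgttccgcac
FIT1, chrIV:1505066-1505092, plus strand: ttcattttttTGCACCCtttcctagaa
FIT2, chrXV:1059190-1059216, minus strand: cttgataaatTGCACCCtgctcttgag
FIT2, chrXV:1059255-1059281, plus strand: tttaaaacaaTGCACCCtaagttcaaa
FIT2, chrXV:1059272-1059298, plus strand: taagttcaaaTGCACCCcccctcgccc
FIT2, chrXV:1059390-1059416, minus strand: ctaattatacTGCACCCagttagattc
FIT3, chrXV:1061324-1061350, minus strand: gattttttttTGCACCCtgtttgttcc
FIT3, chrXV:1061223-1061249, plus strand: cccattttttTGCACCCtttcctagaa
FET3, chrXIII:388561-388587, plus strand: tcttcaaaagTGCACCCatttgcaggt
FTR1, chrV:462089-462115, plus strand: atagtatttcTGCACCCtggcctggaa
FTR1, chrV:461899-461925, minus strand: cgtagatgaaTGCACCCgatttctaag
ARN1, chrVIII:21215-21241, minus strand: tttatcaaaaTGCACCCataaaagcag
ARN2, chrVIII:10644-10670, plus strand: aactaagaacTGCACCCattttctgat
SIT1, chrV:27459-27485, minus strand: cgaaccagatTGCACCCtcaaatgtgt
LSO1, chrX:448887-448913, minus strand: tcgagaatgtTGCACCCttttttccaa

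The nearer matches of FIT1 and FIT3 lay in a run of 25 identical bases, and the coding sequences of these genes were 74.0% identical over 404 aligned bases. FIT2 and FIT3 are neighbours that face each other on chromosome XV (1059531 to 1059992 and 1060441 to 1061055), and the next gene beyond FIT3 is the Aft1 target FRE5. FIT1 lies on chromosome IV (1503314 to 1504900), SIT1 (27657 to 29543) and FTR1 (460526 to 461740) on chromosome V, ARN2 (8351 to 10213) and ARN1 (19088 to 20971) on chromosome VIII. LSO1 lies on chromosome X (448477 to 448758), FRE1 on chromosome XII (568567 to 570627) and FET3 on chromosome XIII (388822 to 390732). The 3 FIT genes, ARN1, ARN2 and SIT1 lie 8.35 to 31.3 kb from a chromosome end, and the other 4 genes 115 to 508 kb away. Each is a single coding exon, none overlaps an annotated gene, and none has a copy with at least 95% identity over 100 bases. ARN1 and ARN2 were 64.4% identical over 1332 bases.

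The start regions of the genes that varied most between strains, FIT2, FIT3 and LSO1, are shown from 250 bases before to 50 bases after the coding start, on the strand of the gene. Matches to TGCACCC and to CACCC on either strand are in capitals.
FIT2 start region, chrXV:1059281-1059580, plus strand: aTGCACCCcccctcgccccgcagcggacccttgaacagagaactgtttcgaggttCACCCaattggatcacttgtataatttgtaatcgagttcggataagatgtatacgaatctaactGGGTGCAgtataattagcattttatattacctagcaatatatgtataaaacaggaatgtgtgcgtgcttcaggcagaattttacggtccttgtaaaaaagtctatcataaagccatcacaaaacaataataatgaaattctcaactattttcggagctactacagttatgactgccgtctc
FIT3 start region, chrXV:1061006-1061305, minus strand: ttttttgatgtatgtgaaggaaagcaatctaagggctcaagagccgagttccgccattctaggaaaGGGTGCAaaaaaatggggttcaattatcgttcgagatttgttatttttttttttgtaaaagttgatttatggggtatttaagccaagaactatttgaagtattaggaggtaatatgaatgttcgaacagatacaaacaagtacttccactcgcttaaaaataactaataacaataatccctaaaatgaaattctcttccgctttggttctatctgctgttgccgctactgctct
LSO1 start region, chrX:448709-449008, minus strand: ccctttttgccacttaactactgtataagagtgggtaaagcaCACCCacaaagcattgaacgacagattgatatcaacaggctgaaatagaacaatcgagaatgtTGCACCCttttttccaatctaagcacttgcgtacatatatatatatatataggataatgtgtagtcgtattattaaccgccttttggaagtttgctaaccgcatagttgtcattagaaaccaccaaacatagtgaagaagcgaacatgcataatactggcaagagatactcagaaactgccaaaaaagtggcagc

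FIT2 carried 2 of its TGCACCC matches in this shorter window, and FIT3 and LSO1 carried 1 each. Over all 10 genes the shorter window held the sequence for 6, and for 1.30% of 6001 start regions. These are matches of letters and not measurements of Aft1 binding. The map of matches shows how they lie relative to each coding start.

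**Figure D1:**
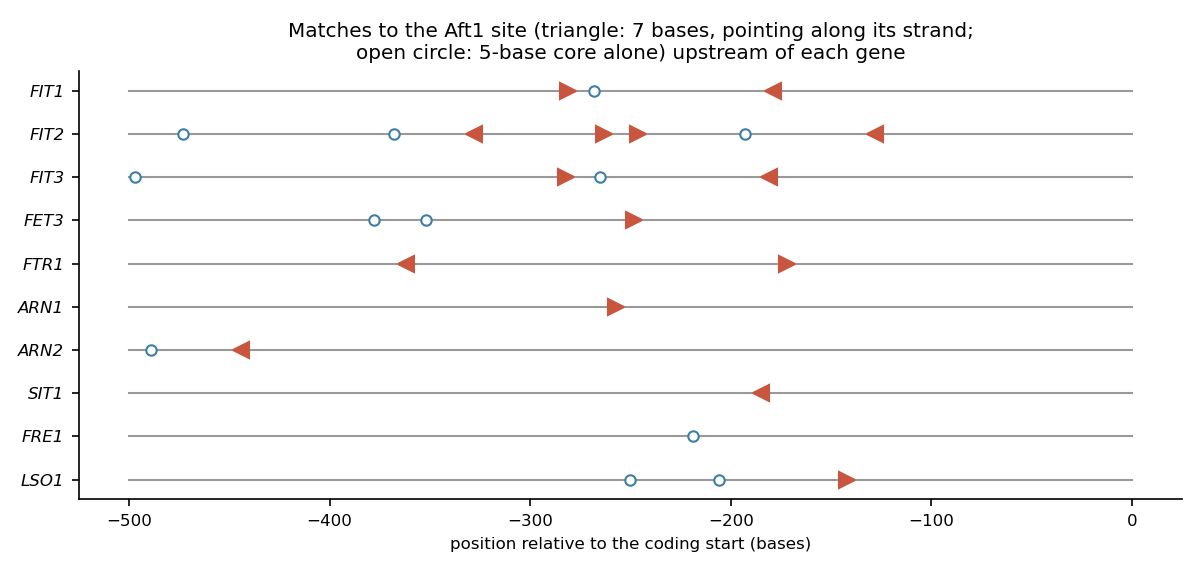
Matches to the 7-base Aft1 sequence (triangles, pointing along the strand that spells it) and to its 5-base core alone (open circles) in the 500 bases before each coding start (x axis, bases). FIT2 has 4 triangles, FRE1 has none, and the matches of FIT1 and FIT3 lie at nearly the same distances.

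The coding sequence of LSO1 is shown because it is the shortest of the genes and the one rich in AAA, CAA and GAA. These are among the codons read by U34-modified tRNAs, and the other codons that such tRNAs read were left out of the count. In-frame AAA, CAA and GAA codons are in capitals.
LSO1 coding sequence, chrX:448477-448758, minus strand: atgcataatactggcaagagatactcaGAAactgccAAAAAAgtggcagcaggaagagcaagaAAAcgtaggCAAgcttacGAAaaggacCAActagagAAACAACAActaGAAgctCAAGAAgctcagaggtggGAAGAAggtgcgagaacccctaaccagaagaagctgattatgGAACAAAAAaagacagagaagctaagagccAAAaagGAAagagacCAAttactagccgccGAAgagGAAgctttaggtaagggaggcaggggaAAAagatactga

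These codons made up 24 of the 93 codons of LSO1, or 25.8%, at percentile 99.9 among 5790 genes, whose median was 11.3%. The 9 other genes lay below that median, from 3.92% in FIT2 (percentile 1.19) to 10.2% in FRE1 (percentile 37.0). LSO1 was thus the only one of the 10 above the median. The plot of codon shares shows where each gene falls.

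**Figure D2:**
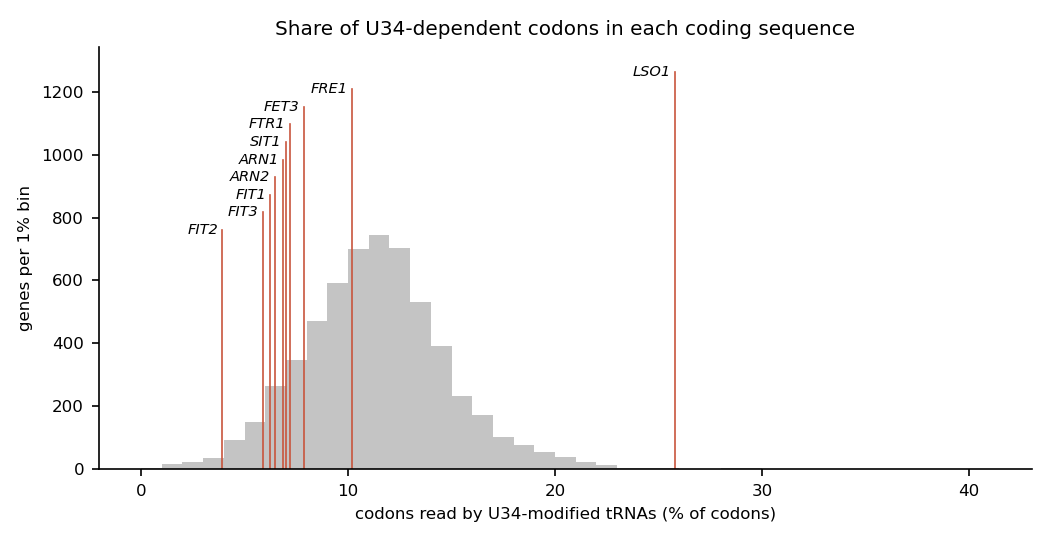
Share of AAA, CAA and GAA codons (x axis, % of codons) in all 5790 coding sequences, as the number of genes per 1% bin (grey bars, y axis). Red lines mark the iron uptake genes, their height only separating the labels; LSO1 is at 25.8% and the others are at 3.92% to 10.2%.

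Transcript levels are given as CPM, the counts of a gene relative to the library total after scaling by a composition factor, and are compared between genes only per kilobase of coding length. By the median over the 8 libraries, the permease FTR1 (393 CPM per kb) and the oxidase FET3 (354) were highest. FIT2 (306), FIT3 (185), FRE1 (155) and SIT1 (102) followed, and ARN1 (41.8), ARN2 (28.5), LSO1 (8.25) and FIT1 (3.97) were lowest. Many neighbours in this order had overlapping ranges: FTR1 ran from 329 to 444 CPM per kb, FET3 from 296 to 409 and FIT2 from 97.5 to 536. The highest strain mean was 14.0 times the lowest for LSO1, 4.27 times for FIT2, 3.02 times for FIT3, 1.8 times for FIT1 and 1.68 times for SIT1, and 1.18 to 1.33 times for FET3, FTR1, ARN1, ARN2 and FRE1.

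**Figure D3:**
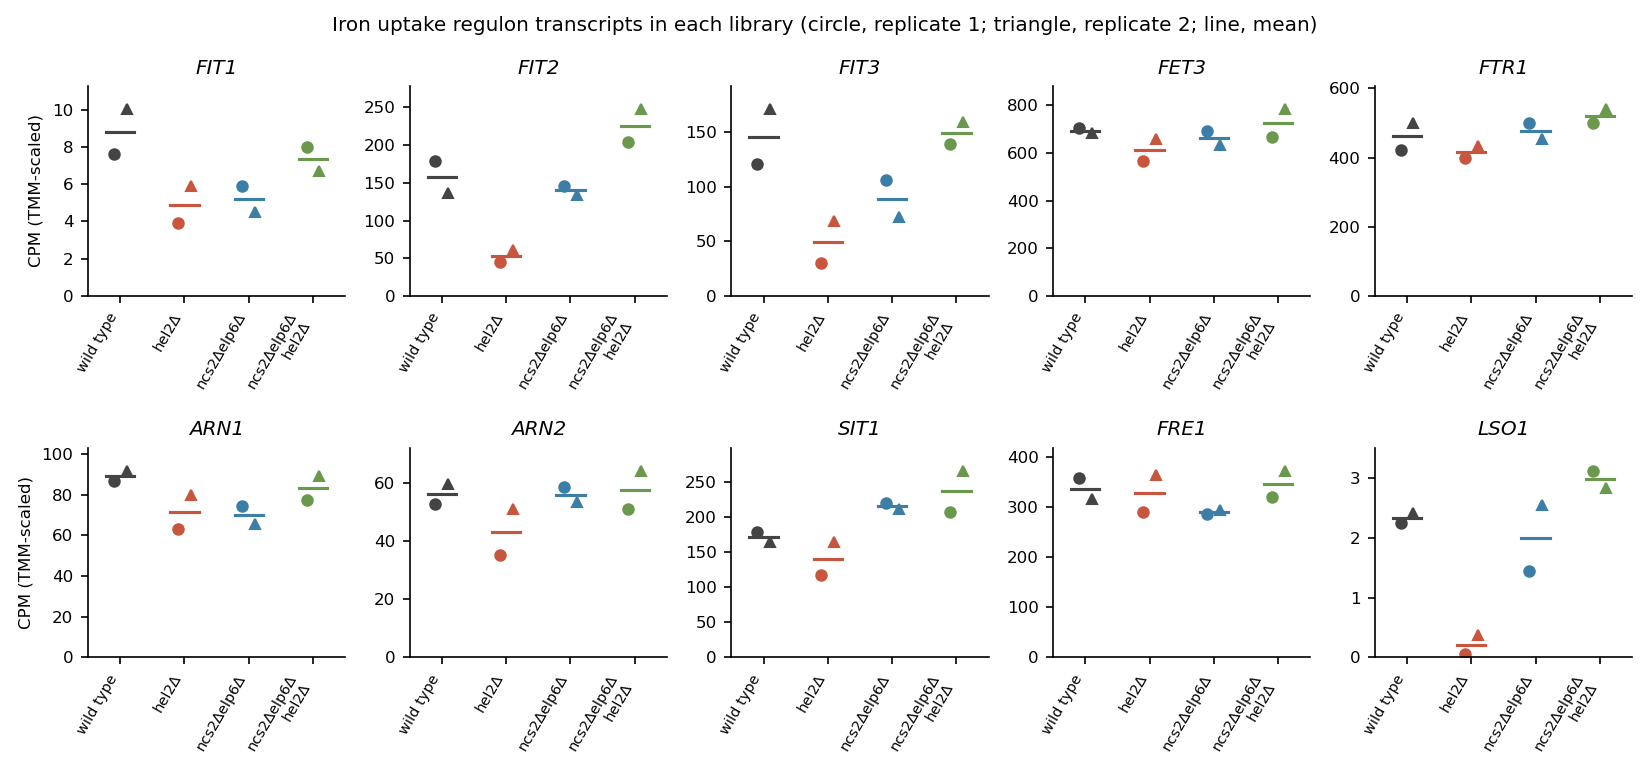
Normalised level of each transcript in every library (y axis, CPM on a linear scale from 0; circles, replicate 1; triangles, replicate 2; lines, strain means; n = 2 per strain). The hel2∆ libraries are the lowest pair for FIT2, FIT3 and LSO1, while the points of FET3, FTR1 and FRE1 lie close together.

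The cell wall mannoproteins varied most among the genes tested. FIT2 was at 179 and 137 CPM in wild-type libraries, at 45.0 and 60.7 in those of hel2∆, at 146 and 134 in those of ncs2∆elp6∆, and at 204 and 248 in those of ncs2∆elp6∆hel2∆. Both hel2∆ libraries lay under every other library, both libraries of the triple mutant lay above every other library, and the wild type and ncs2∆elp6∆ overlapped. The strain means were 158 ± 29.7, 52.9 ± 11.1, 140 ± 8.11 and 226 ± 30.9 CPM in the same order (SD, n = 2). FIT3 was at 121 and 171 CPM in wild-type libraries, at 30.0 and 68.8 in those of hel2∆, at 106 and 72.4 in those of ncs2∆elp6∆, and at 139 and 159 in those of ncs2∆elp6∆hel2∆. Its hel2∆ libraries again lay under all others, although they differed from each other by 2.29 times. FIT1 was at 7.61 and 10.02 CPM in wild-type libraries, at 3.90 and 5.92 in those of hel2∆, at 5.89 and 4.52 in those of ncs2∆elp6∆, and at 8.003 and 6.68 in those of the triple mutant. With 75 to 195 counts per library FIT1 was the least abundant of the 9, and its hel2∆ and ncs2∆elp6∆ libraries overlapped.

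The permease and its oxidase varied little between strains. FET3 was at 702 and 684 CPM in wild-type libraries, at 565 and 658 in those of hel2∆, at 690 and 632 in those of ncs2∆elp6∆, and at 668 and 782 in those of ncs2∆elp6∆hel2∆. FTR1 was at 422 and 501 CPM in wild-type libraries, at 400 and 432 in those of hel2∆, at 499 and 455 in those of ncs2∆elp6∆, and at 501 and 540 in those of the triple mutant. Neighbouring strains in the order of the means overlapped for both genes, except that FTR1 was higher in both triple-mutant libraries than in both ncs2∆elp6∆ libraries. The surface reductase FRE1 was at 359 and 316 CPM in wild-type libraries, at 290 and 365 in those of hel2∆, at 288 and 295 in those of ncs2∆elp6∆, and at 322 and 373 in those of the triple mutant. It was lowest in ncs2∆elp6∆, with neighbouring strains overlapping throughout.

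Among the siderophore transporters, SIT1, which carries ferrioxamine B, showed the widest range. It was at 179 and 165 CPM in wild-type libraries, at 118 and 165 in those of hel2∆, at 221 and 212 in those of ncs2∆elp6∆, and at 208 and 266 in those of ncs2∆elp6∆hel2∆. Both strains without U34 modification lay above both strains with it. ARN1, a ferrichrome transporter, was at 86.7 and 91.7 CPM in wild-type libraries, at 63.0 and 80.0 in those of hel2∆, at 74.3 and 65.4 in those of ncs2∆elp6∆, and at 77.4 and 89.2 in those of the triple mutant. ARN2, a transporter of the siderophore triacetylfusarinine C, was at 52.7 and 59.4 CPM in wild-type libraries, at 35.3 and 50.8 in those of hel2∆, at 58.5 and 53.3 in those of ncs2∆elp6∆, and at 50.8 and 64.1 in those of the triple mutant. For both ARN genes the higher hel2∆ library reached or came close to the level of the other strains.

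LSO1 had 43 and 31 counts in wild-type libraries, 1 and 8 in those of hel2∆, 24 and 56 in those of ncs2∆elp6∆, and 76 and 67 in those of ncs2∆elp6∆hel2∆. In CPM these were 2.24 and 2.41, 0.052 and 0.373, 1.44 and 2.56, and 3.12 and 2.83. The hel2∆ libraries did not overlap any other strain. Over both libraries, the 9 counts of hel2∆ against the 74 of the wild type gave a level 10.4-fold lower. The 143 counts of the triple mutant against those 9 gave a ratio of 13.5. The hel2∆ libraries differed from each other by 7.17 times. These values include the contrast by which LSO1 was chosen, so they are a description only.

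The first comparison asks what loss of Hel2 does where U34 modification is intact. FIT2 fell by 1.58 ± 0.17 on the log2 scale (SE) in hel2∆ against the wild type, with an adjusted p of 0.00191 in edgeR's quasi-likelihood test over all genes. It was the only one of the 9 tested genes to pass, against 0.345% of all genes called lower and 0.312% called higher. FIT3 had nearly the same difference with more spread, at −1.56 ± 0.33 (adjusted p = 0.117), and FIT1 was at −0.83 ± 0.27 (adjusted p = 0.543). The differences of the other genes were −0.38 for ARN2, −0.32 for ARN1, −0.28 for SIT1, −0.18 for FET3, −0.15 for FTR1 and −0.04 for FRE1 on the log2 scale. All 9 differences were below 0, with a median of −0.32, where 51.3% of all genes were below 0 and their median was near 0 (−0.004). For 7 of the 9, FTR1 and FRE1 being the exceptions, both hel2∆ libraries were lower than both wild-type libraries, as was the case for 15.2% of all genes tested. The higher hel2∆ library of SIT1 lay just under the lower wild-type one, at 164.8 against 165.4 CPM.

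Leaving out hel2∆ replicate 1 kept the call for FIT2, at −1.39 with an adjusted p of 0.00976. FIT3 was then at −1.08, FIT1 at −0.56, ARN1 at −0.16, ARN2 at −0.14 and FTR1 at −0.095. FET3, SIT1 and FRE1 were at −0.07, −0.06 and 0.11, with the sign of FRE1 turned. Leaving out hel2∆ replicate 2 instead added a call for FIT3, at −2.28 with an adjusted p of 0.00445. The fitted difference of LSO1 was −3.36 ± 0.60 with all libraries and −2.62 and −5.32 without either hel2∆ library.

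The second comparison asks what loss of U34 modification does where Hel2 is present. None of the 9 genes passed the test in ncs2∆elp6∆ against the wild type, although 14.9% of all genes were called higher and 13.0% lower. FIT1 (−0.76 ± 0.27, adjusted p = 0.0621) and ARN1 (−0.35 ± 0.12, adjusted p = 0.0610) came closest. These were also the 2 genes with an unadjusted p under 0.05, and the 2 that DESeq2 called, with adjusted p of 0.0357 and 0.0265. FIT3 was at −0.71 ± 0.32 (adjusted p = 0.129) and SIT1 at 0.33 ± 0.16 (adjusted p = 0.144). FRE1 and FIT2 were at −0.21 and −0.18, and FET3, FTR1 and ARN2 lay within 0.07 of 0 on the log2 scale. LSO1, with no test, was at −0.19 ± 0.44.

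The remaining comparisons ask what Hel2 loss does once U34 modification is absent, and what U34 loss does once Hel2 is absent. FIT2 rose by 0.69 ± 0.16 on the log2 scale (1.61-fold) in ncs2∆elp6∆hel2∆ against ncs2∆elp6∆, with an adjusted p of 0.0380. It was again the only gene of the 9 to pass, where 2.81% of all genes were called higher and 4.12% lower. All 9 differences were above 0, with a median of 0.25 against 0.005 for all genes. FIT3 was at 0.74 ± 0.32 (adjusted p = 0.188), FIT1 at 0.51 ± 0.27 (adjusted p = 0.275), and the 6 others between 0.04 and 0.26. The call for FIT2 was lost when any 1 of the 4 libraries compared was left out, with adjusted p up to 0.246. LSO1 was at 0.55 ± 0.41.

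In ncs2∆elp6∆hel2∆ against hel2∆, 4 of the 9 genes rose and none fell, where 15.1% of all genes were called higher and 13.8% lower. FIT2 rose by 2.09 ± 0.17 on the log2 scale (4.26-fold, adjusted p = 2.85e-05) and FIT3 by 1.59 ± 0.33 (3.01-fold, adjusted p = 0.00664). SIT1 rose by 0.75 ± 0.16 (adjusted p = 0.00704) and FTR1 by 0.32 ± 0.10 (adjusted p = 0.0352). FIT1 (0.58, adjusted p = 0.130), ARN2 (0.41, adjusted p = 0.0921) and FET3 (0.24, adjusted p = 0.102) did not pass, nor did ARN1 (0.22) or FRE1 (0.08). The median of the 9 was 0.41, against 0.003 for all genes. Both triple-mutant libraries were above both hel2∆ libraries for 6 of the 9, FIT1, FIT2, FIT3, FET3, FTR1 and SIT1, and for 33.5% of all genes. Without hel2∆ replicate 1, FIT2 (1.89), FIT3 (1.12) and SIT1 (0.52) kept their calls and FTR1 lost its own (0.27, adjusted p = 0.135). The call for FTR1 was also lost without the other hel2∆ library or any 1 library of ncs2∆elp6∆ or the triple mutant. Without replicate 2 of the triple mutant only FIT2 and FIT3 were called, SIT1 having an adjusted p of 0.0572. LSO1 was at 3.72 ± 0.57, and at 2.98 and 5.68 without hel2∆ replicate 1 and replicate 2. Over the alternative fits described below, FIT1 ranged from 0.311 to 0.912, ARN2 from 0.176 to 0.701 and FET3 from 0.112 to 0.358. ARN1 ranged from 0.0598 to 0.402 and FRE1 from −0.0733 to 0.258.

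**Figure D4:**
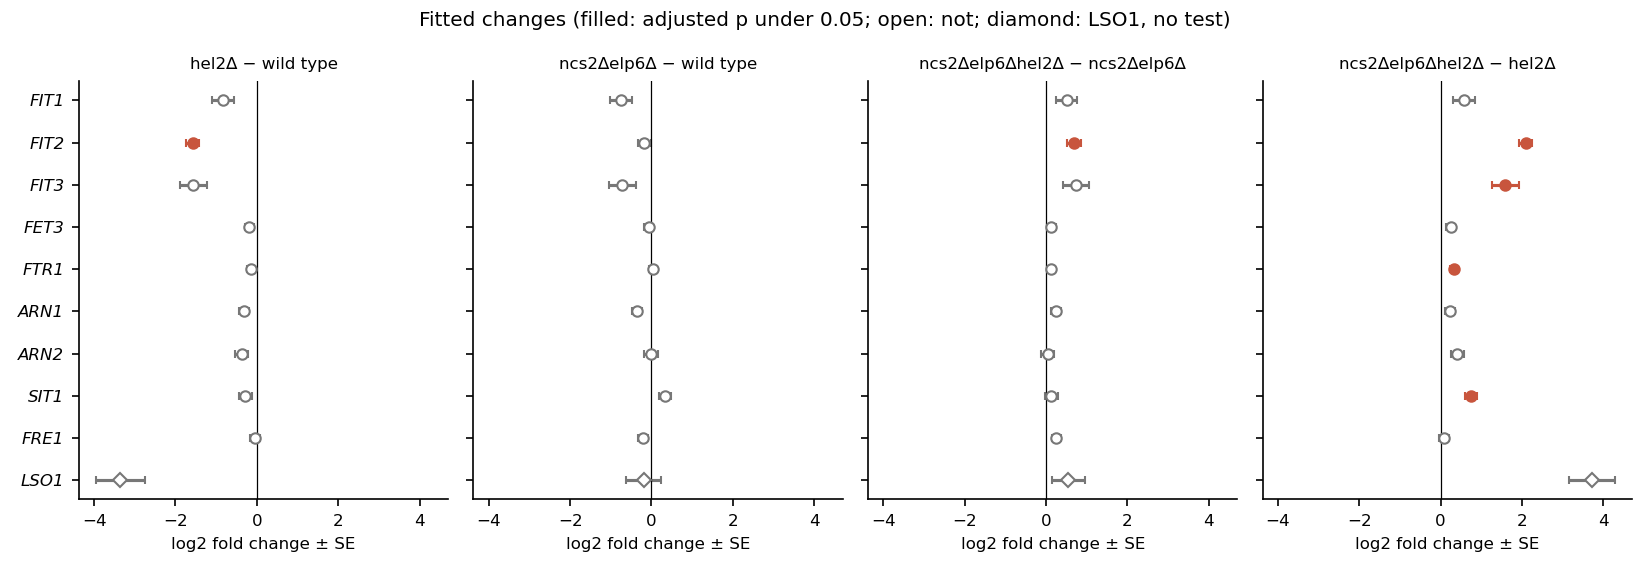
Fitted log2 fold change ± SE (x axis) of each gene in the 4 comparisons, from edgeR with 2 libraries per strain. Filled red circles have an adjusted p under 0.05 over all genes: FIT2 in every panel but that of ncs2∆elp6∆ against the wild type, and FIT3, FTR1 and SIT1 in the panel of the triple mutant against hel2∆; diamonds mark LSO1, which was not tested.

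The comparisons share libraries, since each strain enters more than 1 of them. The changes with U34 loss with and without Hel2 share none with each other, and neither do the changes with Hel2 loss in both backgrounds. The difference between the changes with Hel2 loss, called the interaction value, is given with no p because LSO1 was chosen by it. It was 2.30 ± 0.46 for FIT3, 2.27 ± 0.23 for FIT2, 1.33 ± 0.38 for FIT1 and 0.57 ± 0.18 for ARN1 on the log2 scale. The values of ARN2, SIT1, FET3, FRE1 and FTR1 were 0.42, 0.41, 0.31, 0.29 and 0.28, and that of LSO1 was 3.91 ± 0.74. All 10 were above 0, LSO1 being included though chosen by this value, as were those of 50.6% of all genes. The median of the 10 was 0.49, against 0.003 for all genes. The sizes depended on the hel2∆ libraries. Without hel2∆ replicate 1 the values were 3.17 for LSO1, 2.07 for FIT2, 1.83 for FIT3, 1.07 for FIT1, 0.41 for ARN1, 0.22 for FTR1, 0.21 for FET3, 0.19 for SIT1, 0.18 for ARN2 and 0.14 for FRE1. Without hel2∆ replicate 2 they were 5.87 for LSO1, 3.02 for FIT3, 2.50 for FIT2, 1.67 for FIT1 and 0.33 to 0.76 for the others. For FIT1, FIT2, FIT3 and ARN1, both hel2∆ libraries were below both wild-type libraries and both triple-mutant libraries above both of ncs2∆elp6∆. That was the case for 4.44% of all genes. LSO1 showed it too, but was chosen by this contrast. The plot of the changes in both backgrounds shows FIT2, FIT3, FIT1 and LSO1 low where U34 modification is intact and above 0 where it is absent.

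**Figure D5:**
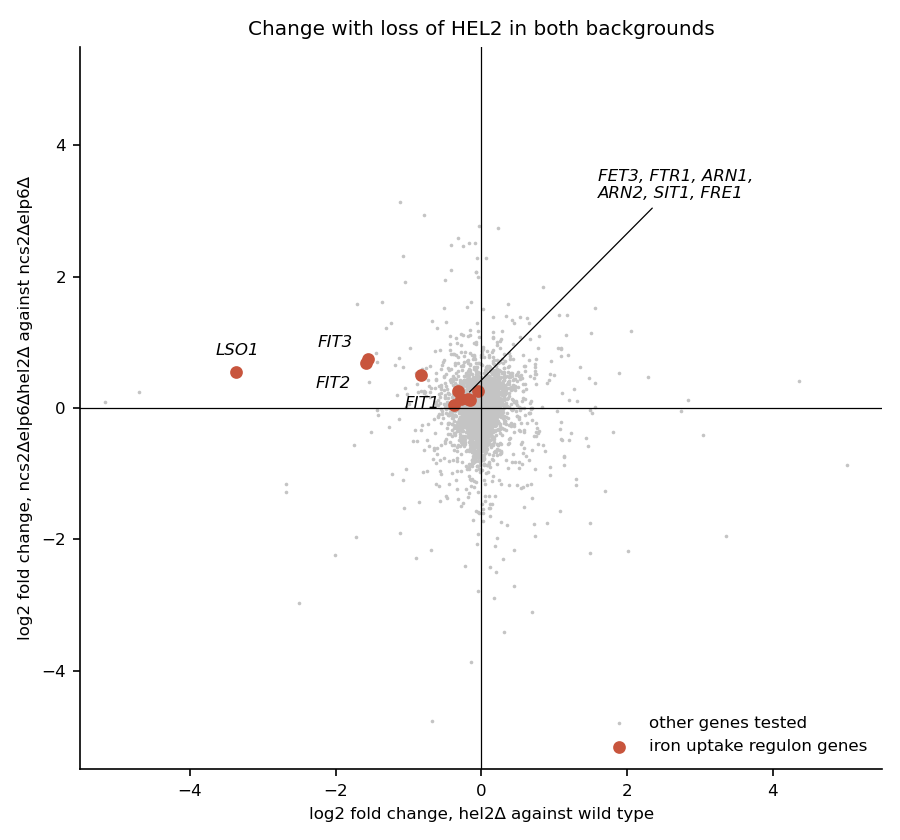
Log2 fold change on loss of HEL2 in the wild-type background (x axis) and in the ncs2∆elp6∆ background (y axis) for the genes tested (grey; HEL2 itself lies outside the axes) and the iron uptake genes (red). LSO1, FIT2, FIT3 and FIT1 lie to the left of 0 and above it, at −3.36 and 0.55, −1.58 and 0.69, −1.56 and 0.74, and −0.83 and 0.51.

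Across the 8 libraries the 10 genes moved together to different degrees. LSO1 was chosen by its interaction, so its pattern over the strains, and its r with genes of that pattern, were partly set by the choice. Pearson's r of log2 CPM was highest for FIT2 with LSO1 (0.944) and FET3 with ARN2 (0.891), and lowest for FTR1 with FRE1 (0.127) among the 45 pairs. The libraries share strain and depth differences. Without hel2∆ replicate 1 these values were 0.901, 0.754 and −0.169, so that library carried part of the likeness. The 10 genes outside the set whose log2 CPM correlated best with the mean z-score of the 9 tested genes, out of 6077, were MHP1 (r = 0.969), RNR3 (0.958), YSP3 (0.931), YLR358C (0.907), YDR461C-A (0.894), YFL015C (0.893), CMP2 (0.890), TPS2 (0.875), YDR514C (0.870) and FAT3 (0.865). RNR3 encodes a large subunit of ribonucleotide reductase and TPS2 a trehalose phosphatase. Without hel2∆ replicate 1 the r of the 10 genes was 0.623 (YDR514C) to 0.926 (RNR3). TPS2 had strain means of 220 CPM (wild type), 185 (hel2∆), 197 (ncs2∆elp6∆) and 248 (triple mutant), and rose by 0.42 on the log2 scale in the triple mutant against hel2∆ (adjusted p = 0.00246).

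Of 19 further Aft1 or Aft2 targets, none was called in hel2∆ against the wild type. Only 0.312% of all genes were called higher there and 0.345% lower, so few calls could be looked for among 19 genes. In ncs2∆elp6∆ against the wild type 5 rose and 3 fell, where 14.9% of all genes rose and 13.0% fell. In the triple mutant against ncs2∆elp6∆ 2 rose, against 2.81% of all genes, and in the triple mutant against hel2∆ 10 rose and 3 fell, against 15.1% and 13.8%. ISU1, the scaffold for iron-sulfur clusters, was at 46.0 and 45.1 CPM in wild-type libraries, at 53.3 and 47.9 in those of hel2∆, at 93.4 and 88.7 in those of ncs2∆elp6∆, and at 130 and 115 in those of the triple mutant. It rose by 1.00 on the log2 scale with U34 loss alone (adjusted p = 8.52e-05) and by 1.28 in the triple mutant against hel2∆ (adjusted p = 1.14e-05). In the latter comparison HMX1, a haem oxygenase, rose by 1.22 (adjusted p = 0.00145) and ECM4, a glutathione transferase, by 1.28 (adjusted p = 0.000349). ECM4 had the same order of strain means as FIT2, at 24.7 and 19.3 CPM in wild-type libraries, at 11.3 and 13.8 in those of hel2∆, at 19.6 and 20.8 in those of ncs2∆elp6∆, and at 32.2 and 29.1 in those of the triple mutant. ATX1, a copper chaperone, fell by 0.99 with U34 loss alone (adjusted p = 4.36e-05), and the mitochondrial iron importer MRS4 rose by 0.57 (adjusted p = 0.00851). FRE5, next to FIT3, was at 33.5 and 36.8 CPM in the wild type and 35.6 and 33.9 in hel2∆, and rose by 0.38 in the triple mutant against hel2∆ (adjusted p = 0.0264).

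The transcripts of the regulators themselves moved little. AFT1 differed by 0.05, 0.20, −0.06 and 0.08 on the log2 scale in the 4 comparisons in the order above, and its homologue AFT2 by 0.03, 0.10, −0.06 and 0.01; neither was called. Among the 8 genes of iron sensing, GRX3 fell by 0.61 with U34 loss alone (adjusted p = 0.000744) and by 0.61 in the triple mutant against hel2∆ (adjusted p = 0.000705). FRA1, which acts with the glutaredoxins to restrain Aft1, rose in both comparisons of the triple mutant, by 0.27 (adjusted p = 0.0479) and 0.41 (adjusted p = 0.00220). Of 5 genes of low-affinity and vacuolar iron transport, CCC1, which fills the vacuole with iron, was the only one called. It rose by 0.46 with U34 loss alone (adjusted p = 0.00209), where 14.9% of all genes rose. In the triple mutant against hel2∆ it rose by 0.50 (adjusted p = 0.00115), where 15.1% of all genes rose.

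Of 23 genes of iron-sulfur cluster assembly, 8 rose and none fell with U34 loss alone, and 9 rose and none fell in the triple mutant against hel2∆. Their median changes were 0.18 and 0.19 on the log2 scale, against 0.03 and 0.003 for all genes, of which 14.9% and 15.1% rose and 13.0% and 13.8% fell. With Hel2 loss, 0.345% of all genes were called lower in the wild-type background and 4.12% in the ncs2∆elp6∆ background. ISU2 and DRE2 fell in the wild-type background, at −0.93 (adjusted p = 0.00284) and −0.49 (adjusted p = 0.0424) on the log2 scale. They fell with MET18 in the ncs2∆elp6∆ background, at −0.50 (adjusted p = 0.0254) for ISU2, −0.50 (adjusted p = 0.0128) for DRE2 and −0.69 (adjusted p = 0.0180) for MET18. Of 14 iron-using enzymes, 5 rose with U34 loss alone and 7 in the triple mutant against hel2∆, where 14.9% and 15.1% of all genes rose. None of the 14 fell in either comparison, where 13.0% and 13.8% of all genes fell. LEU1, the iron-sulfur enzyme of leucine synthesis, was at 726 and 760 CPM in wild-type libraries, at 134 and 128 in those of hel2∆, at 982 and 1005 in those of ncs2∆elp6∆, and at 119 and 135 in those of the triple mutant. It fell with Hel2 loss in both backgrounds, at −2.51 (adjusted p = 3.42e-07) and −2.97 (adjusted p = 5.36e-08) on the log2 scale, in strains that carry the LEU2 marker. ILV3, of the same branched-chain pathway, fell as well, at −0.51 (adjusted p = 0.0302) and −0.75 (adjusted p = 0.00106). LEU1 and ILV3 were the 2 of the 14 enzymes called lower with Hel2 loss, where 0.345% and 4.12% of all genes were. CTT1, the haem-containing cytosolic catalase, rose by 1.07 (adjusted p = 0.000120) in the triple mutant against ncs2∆elp6∆ and by 1.75 (adjusted p = 1.53e-06) against hel2∆.

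Other metal regulons were tested beside the iron genes. Of all genes, 14.9% were called higher and 13.0% lower with U34 loss alone. The shares were 2.81% and 4.12% in the triple mutant against ncs2∆elp6∆, and 15.1% and 13.8% against hel2∆. Of 3 copper-responsive genes, the reductase FRE7 rose by 0.85 (adjusted p = 0.00456) in the triple mutant against ncs2∆elp6∆ and by 0.63 (adjusted p = 0.00418) against hel2∆. Of 6 zinc-responsive genes, the transporter ZRT2 fell by 0.56 (adjusted p = 0.000610) with U34 loss alone, and ZRT1, ZRT2 and the activator ZAP1 fell, at −0.36, −0.60 and −0.48 (adjusted p = 0.0246, 0.000348 and 0.00605) in the triple mutant against hel2∆. Of 3 genes of the retrograde response, which reports on mitochondrial function, CIT2 and DLD3 fell, at −0.32 and −0.35 with U34 loss alone (adjusted p = 0.0209 and 0.00617) and −0.86 and −0.79 in the triple mutant against hel2∆ (adjusted p = 0.000100 and 5.57e-05). MATa markers moved with U34 loss as well. In ncs2∆elp6∆ against the wild type 4 of the 5 were called lower, where 13.0% of all genes were. In the triple mutant against hel2∆ 3 were called lower, where 13.8% of all genes were. MFA1 and MFA2, the a-factor genes, rose in the triple mutant against ncs2∆elp6∆, by 1.84 (adjusted p = 0.0347) and 1.37 (adjusted p = 0.0224), in the comparison in which FIT2 rose. The triple-mutant libraries differed, at 168 and 56.8 CPM for MFA1 and 129 and 63.8 for MFA2. Wild-type libraries were at 52.3 and 60.7 CPM for MFA1. The other MATa markers, STE2, BAR1 and STE6, were at −0.11, −0.08 and −0.09 in that comparison and were not called. Of the MATalpha markers, the a-factor receptor STE3 rose by 0.94 with U34 loss alone (adjusted p = 0.00664), and MF(ALPHA)1 rose in the triple mutant against hel2∆ (adjusted p = 0.0126), from 1 and 3 counts to 36 and 14. SAG1 and MF(ALPHA)2 were called in neither, at −0.12 and 0.02 with U34 loss alone and −0.25 and 0.19 in the triple mutant against hel2∆. The part of all these other genes in the values of the iron genes was not tested.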

How the data were processed

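The authors sequenced poly(A)-selected, stranded mRNA libraries, and the deposited table gives whole-number read counts per gene, not normalised, for 8 libraries; no column belonged to other samples. The submitters' processing notes name Bowtie and the build sacCer3, with no role or version. The DESeq2 comparison the study describes was not used.

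The 10 members and all gene lists were chosen with earlier results of these data known. Counts were fitted in edgeR 4.0.16 (R 4.3.3, limma 3.58.1) with TMM scaling, filterByExpr and 1 mean per strain over all 8 libraries. Two-sided quasi-likelihood tests were adjusted by Benjamini-Hochberg over 6087 genes, and calls needed an adjusted p under 0.05. Each SE was derived as |log2 fold change|/sqrt(F). Log2 CPM for correlations used a prior count of 2. The fit was tested on simulated data with 200 changed genes. DESeq2 1.42.0, other scalings, filters and designs, and each library left out were tried as alternatives. Named genes were all members, list genes called with a log2 change over 1, AFT1, AFT2, list neighbours and the 10 genes most like the members; other list genes were named after their values were seen. Sequences and coordinates came from RefSeq R64, and copies were sought with BLAST 2.17.0. Genes matched by systematic name. Replicates within a strain correlated at 0.9898 to 0.9939 (Pearson, log2 CPM), and counts differed by more than sampling noise.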

Additional observations from a re-analysis of the deposited data

Results flagged for a closer look

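For FIT1, FIT2, FIT3 and ARN1, both libraries without Hel2 lay under both controls where U34 modification was intact and above both where absent. This pattern was found for 4.44% of all genes. LSO1 had it too, but is set apart because it was chosen by this contrast. The interaction values were 3.91 for LSO1, 2.30 for FIT3, 2.27 for FIT2, 1.33 for FIT1 and 0.57 for ARN1 on the log2 scale. Over the alternatives they ranged from 3.17 to 5.87, 1.83 to 3.02, 2.06 to 2.50, 1.07 to 1.67 and 0.41 to 0.76. Without hel2∆ replicate 1, LSO1 was at 3.17 and FIT3 at 1.83, and without hel2∆ replicate 2 they were at 5.87 and 3.02. These differences between backgrounds were not tested, since LSO1 was chosen by this contrast and the values of the other genes are given as a description beside it.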

How the results depend on the processing

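Over the 15 alternatives, FIT2 stayed called lower in hel2∆ against the wild type (log2 change −1.82 to −1.37, adjusted p 7.1e-21 to 0.0478), and FIT2 (1.89 to 2.32) and FIT3 (1.12 to 2.31) stayed called higher in the triple mutant against hel2∆. FIT3 was called in 2 of 15 in hel2∆ against the wild type. With U34 loss alone, calls among the 9 genes numbered 0 in the report, 1 with RLE size factors (ARN1) and 2 with DESeq2 (FIT1 and ARN1). A fit to the compared strains alone called 4 (FIT1, FIT3, ARN1 and SIT1). The calls over all genes were 1699 of 6087, 1686 of 6087, 1689 of 6091 and 1713 of 6003 in the same order. In the triple mutant against ncs2∆elp6∆ the fit to the compared strains called 2 (FIT2 and FIT3), and 869 of all 6062 genes. With 1 library left out, which leaves a lone sample assumed to vary like the others, the counts were 1 to 2, 0 to 3, 0 to 2 and 2 to 4 in the order of the report. The 3 calls with U34 loss alone (FIT1, FIT3 and ARN1) came without either hel2∆ library, which is not part of that comparison. Library totals moved the median of all genes by over 0.1 in both comparisons across U34 loss, to 0.141 and 0.105 from 0.033 and 0.003. They called 1420 genes higher and 519 lower with U34 loss alone (906 and 793 with TMM), 133 and 447 in the triple mutant against ncs2∆elp6∆ (171 and 251), 1389 and 521 against hel2∆ (917 and 837), and 11 and 21 in hel2∆ against the wild type (19 and 21). Signs turned only for values that were not called: with library totals FET3 (0.038) and ARN2 (0.10) with U34 loss alone and ARN2 (−0.021) in the triple mutant against ncs2∆elp6∆. With 1 library left out, values that turned sign ranged with U34 loss alone from −0.11 to 0.083 for ARN2, −0.36 to 0.030 for FIT2, −0.070 to 0.17 for FTR1 and −0.70 to 0.10 for LSO1. They ranged from −0.12 to 0.23 for ARN2 and −0.039 to 0.34 for SIT1 in the triple mutant against ncs2∆elp6∆, and for FRE1 from −0.22 to 0.11 in hel2∆ against the wild type and −0.073 to 0.26 in the triple mutant against hel2∆. The labels give same-numbered libraries of different strains a shared number and do not say whether they share more. Deviations of same-numbered libraries correlated from −0.209 to 0.476, the highest value being that of the wild type with hel2∆. In a fit with the replicate block, 1, 0, 1 and 5 genes were called (ARN2 added in the last), and ARN2 with U34 loss alone turned to 0.0015. That fit called 37, 1821, 663 and 1890 of all 6087 genes. A crossed pairing, chosen after seeing the data, called 2, 4, 3 and 7 of the 9. It called 79, 2441, 1265 and 2604 of all 6087 genes in the same order. LSO1, at 1 to 76 counts, is the value most limited by depth. The causes of these changes were not tested.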
